A study of Mus musculus with 12 samples.

Results

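A set of 10 genes of cyclic nucleotide phosphodiesterases, with Pde5a among them, was read on microarrays of mouse hearts that carry altered alleles of Nkx2-5. The genes are Pde1a, Pde1c, Pde2a, Pde3a, Pde3b, Pde4b, Pde4d, Pde5a, Pde8a and Pde9a. Their probes were found by matching the accession of each probe to a RefSeq gene table, which gave 16 probes of 10 genes, among 55681 probes and 20660 named genes in all. The choice of genes was made with earlier results of these arrays known: Pde5a was picked for its low reading in the delta line and Pde3b had stood out in the I183M line, so the values of both are descriptions, and where they are among the calls of a fit over all probes nothing is read from that.

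The study compared the RNA of the heart apex of male C57BL/6J mice, 15 weeks old, on 12 single-colour Agilent arrays. Nkx2-5 encodes a homeobox factor that heart muscle cells need for their development. One allele is deleted in the delta line. In I183P and I183M mice proline or methionine stands in place of an isoleucine of the protein, and the knock-in allele of control mice leaves that isoleucine as it was. All 4 genotypes pair the named allele (control, I183M, I183P or delta) with a + allele, and each holds 3 arrays. Whether the 3 samples of a group came from separate animals is not given in the labels, so p-values measure the spread between these samples. The apex is a mixed tissue, and in such RNA fewer cells of a type and less RNA per cell cannot be told apart.

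Phosphodiesterases end the signals of cyclic AMP and cyclic GMP by hydrolysing them. Pde5a acts on cyclic GMP and is the target of sildenafil, and Pde9a is another enzyme selective for cyclic GMP. Pde1a, Pde1c and Pde2a act on both nucleotides, Pde1 enzymes being switched on by calcium and calmodulin and Pde2a by cyclic GMP itself. Pde3a and Pde3b hydrolyse cyclic AMP and are inhibited by cyclic GMP, while Pde4b, Pde4d and Pde8a are selective for cyclic AMP. In heart muscle, Pde3 and Pde4 enzymes limit the response to adrenergic stimulation.

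The promoter of Pde5a is shown because Pde5a differed most from control in delta among the 16 probes and because Nkx2-5 binds DNA around the core AAGTG. The 250 bases before its start at chr3:122728908-122729157 (RefSeq, GRCm38.p6, plus strand) read, with the core or its reverse complement CACTT in capitals:
Pde5a promoter: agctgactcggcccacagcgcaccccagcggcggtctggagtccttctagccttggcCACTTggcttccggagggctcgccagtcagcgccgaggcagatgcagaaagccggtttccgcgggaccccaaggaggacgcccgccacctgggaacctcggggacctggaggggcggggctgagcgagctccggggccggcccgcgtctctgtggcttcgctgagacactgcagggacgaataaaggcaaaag
The core occurs once, on the reverse strand, with its first base 193 bases before the start. On either strand it was found in 40.7% of the 32851 mouse promoters of this length, and in 11 of the 19 RefSeq promoters that belong to 7 of the 10 genes. The longer form TNAAGTG, which contains the core, was found in 10.1% of all promoters and in 3 of the 19, those of Pde1a and Pde2a, and its letters were not in the Pde5a window. The GC box GGGCGG, searched on both strands, was found in the promoters of Pde5a, Pde2a and Pde8a and in 32.7% of all promoters. The short form TGACG of the cyclic AMP response element, searched on both strands, was found in 17.8% of all promoters and in those of Pde1a, Pde4b and Pde8a. A match to a few letters is a description of the sequence and no binding was measured.

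Levels below are log2 values of the processed intensity relative to the 75th percentile of each array, and differences are log2 folds between group means. Of the 12 arrays, control replicate 1 differed most from the rest. The share of its spots well above background was 99.1%, against 51.2% to 75.2% elsewhere, and its median processed intensity was 602 against 34.8 to 92.5. Comparisons with control are therefore given with all arrays and, where that moves the value, without that array or on a second scale made by normexp background correction and quantile normalization (called the quantile scale). Arrays of the delta line and I183P replicate 3 lay on the second of 2 slides and the other 8 arrays on the first, so no slide holds both delta and control arrays. On the quantile scale the targeted gene Nkx2-5, on chromosome 17, read 12.78, 12.86 and 12.89 on the delta arrays, 13.81, 13.57 and 13.63 on the I183P arrays, 13.66, 13.74 and 13.67 on the I183M arrays, and 13.60, 13.52 and 13.58 on the control arrays. The delta arrays lay below the other 9, and the difference from control was -0.72 (SE 0.095, limma adjusted p = 0.0395), a ratio of 0.605. On the 75th percentile scale that difference was -0.22 (SE 0.34, limma adjusted p = 0.889). Whether the probe lies inside the deleted part is not stated.

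All 16 probes were among the 41619 that were tested, and 14 were well above background on every array. The exceptions were Pde1c probe A_52_P108243, which missed that mark on 3 arrays, and Pde4b probe A_52_P149801, which missed it on 1.

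Pde5a was read by 1 probe, A_55_P2042778, on chromosome 3, whose accession is NM_153422. Its level was -0.29, 0.03 and -0.18 on the delta arrays. It was 3.04, 3.17 and 2.16 on the I183P arrays, 2.87, 3.57 and 2.84 on the I183M arrays, and 2.91, 3.97 and 3.95 on the control arrays. The delta arrays lay more than 2 log2 units below the lowest of the other 9 arrays, and the remaining lines overlapped with control through control replicate 1. Group means were -0.15 ± 0.17 in delta, 2.79 ± 0.55 in I183P, 3.09 ± 0.41 in I183M and 3.61 ± 0.61 in control (SD, n = 3 each).

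The difference of Pde5a from control was -3.75 in delta (SE 0.38), which is a ratio of 0.0741. It was -4.10 without control replicate 1 and -3.88 on the quantile scale. With slide as a block the difference was -2.81, a value that rests on the single I183P array sharing a slide with delta. That array, I183P replicate 3, had the lowest level of Pde5a outside delta. Among the 41619 probes the delta difference ranked as number 6 from the lowest, and on the quantile scale as number 1. All 3 delta arrays read below all 9 other arrays at 412 of the 41619 probes (0.990%), Pde5a included.

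The missense lines also read lower than control on the quantile scale. Quantile-scale levels of Pde5a were 9.24, 9.44 and 9.34 in delta, 12.30, 12.47 and 11.45 in I183P, 12.17, 12.81 and 12.10 in I183M, and 13.28, 13.20 and 13.17 in control. No mutant array reached the lowest control array there, which held at 275 of the 41619 probes (0.661%), Pde5a included. The difference from control was -1.14 (SE 0.26) in I183P and -0.86 (SE 0.26) in I183M on that scale (limma adjusted p = 0.424 and 0.834). On the 75th percentile scale it was -0.82 and -0.52 (SE 0.38), and neither line passed the threshold on either scale. With slide as a block on the 75th percentile scale the I183P difference was -0.50 (SE 0.38). The order of the means was the same on both scales: delta, then I183P, then I183M, then control. The neighbours I183P and I183M overlapped on both. On the 75th percentile scale the I183P difference from I183M was -0.30 (SE 0.38), and with slide as a block it was 0.01 (SE 0.38). That step of the order was therefore not kept with the block, and no order of I183P and I183M is read. Direct differences were -2.94 for delta versus I183P and -3.24 for delta versus I183M (SE 0.38), and -2.74 and -3.02 on the quantile scale.

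Smooth muscle cells and platelets are known for Pde5a, so their markers were read beside it. The summed level of 8 smooth muscle and pericyte markers was 15.46 to 16.16 in delta and 15.88 to 16.12 in control on the quantile scale. Beside 0.0721% of all probes, 0 of these 8 markers passed the threshold there. Their median difference from control in delta was 0.05 on that scale and 0.24 on the 75th percentile scale, where it was -0.15 without control replicate 1. The summed level of 4 platelet markers was 13.09 to 13.25 in delta and 13.09 to 13.45 in control. The median difference of the platelet markers in delta was -0.51 on the 75th percentile scale, with 1 of 4 above 0, and it was -0.20 without control replicate 1 and -0.06 on the quantile scale. Both ranges of sums overlapped, and the part of either cell type in the Pde5a value was not tested.

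The named genes whose levels followed that of Pde5a most closely over the 12 arrays were Slc49a4 (Pearson r = 0.994), 3930402G23Rik (0.984), Olfr681 (0.980), Olfr612 (0.978) and Emilin3 (0.978). None of the 5 lies on chromosome 3. Olfr612 was not well above background on any delta array (-6.89, -6.80 and -5.93). In quantile-scale values r stayed at 0.998 for Slc49a4 and was 0.753, 0.836, 0.733 and 0.870 for the others in the same order. Slc49a4, on chromosome 16, read 9.12, 9.15 and 9.11 on the delta arrays of that scale, 11.32, 11.58 and 10.70 on the I183P arrays, 11.33, 11.90 and 11.25 on the I183M arrays, and 12.20, 12.22 and 12.24 on the control arrays. Its arrays stood in nearly the order of those of Pde5a, with I183M replicate 2 the highest of the missense arrays and I183P replicate 3 the lowest. Outside the delta line and control replicate 1 the correlation of Slc49a4 with Pde5a was 0.994 over 8 arrays. For 3930402G23Rik, Olfr681, Olfr612 and Emilin3 it was 0.981, 0.961, 0.900 and 0.973 over the same arrays. The arrays share group, slide and depth of signal, the 5 genes were picked for likeness, and whether their probes read separate transcripts was not tested.

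Pde9a, the other enzyme selective for cyclic GMP, was read by probe A_51_P383194 on chromosome 17. Its level was -2.09, -1.94 and -2.0 in delta, -1.70, -1.09 and -2.17 in I183P, -1.73, -2.25 and -2.17 in I183M, and 0.01, -2.84 and -2.41 in control. Control replicate 1 was the highest of all arrays and the other 2 control arrays were the lowest. The difference from control was -0.26 in delta, 0.09 in I183P and -0.30 in I183M (SE 0.63), and without control replicate 1 it was 0.61, 0.97 and 0.57. None of these passed the threshold (smallest adjusted p = 0.915 with all arrays and 0.428 without that array, by limma).

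**Figure D1:**
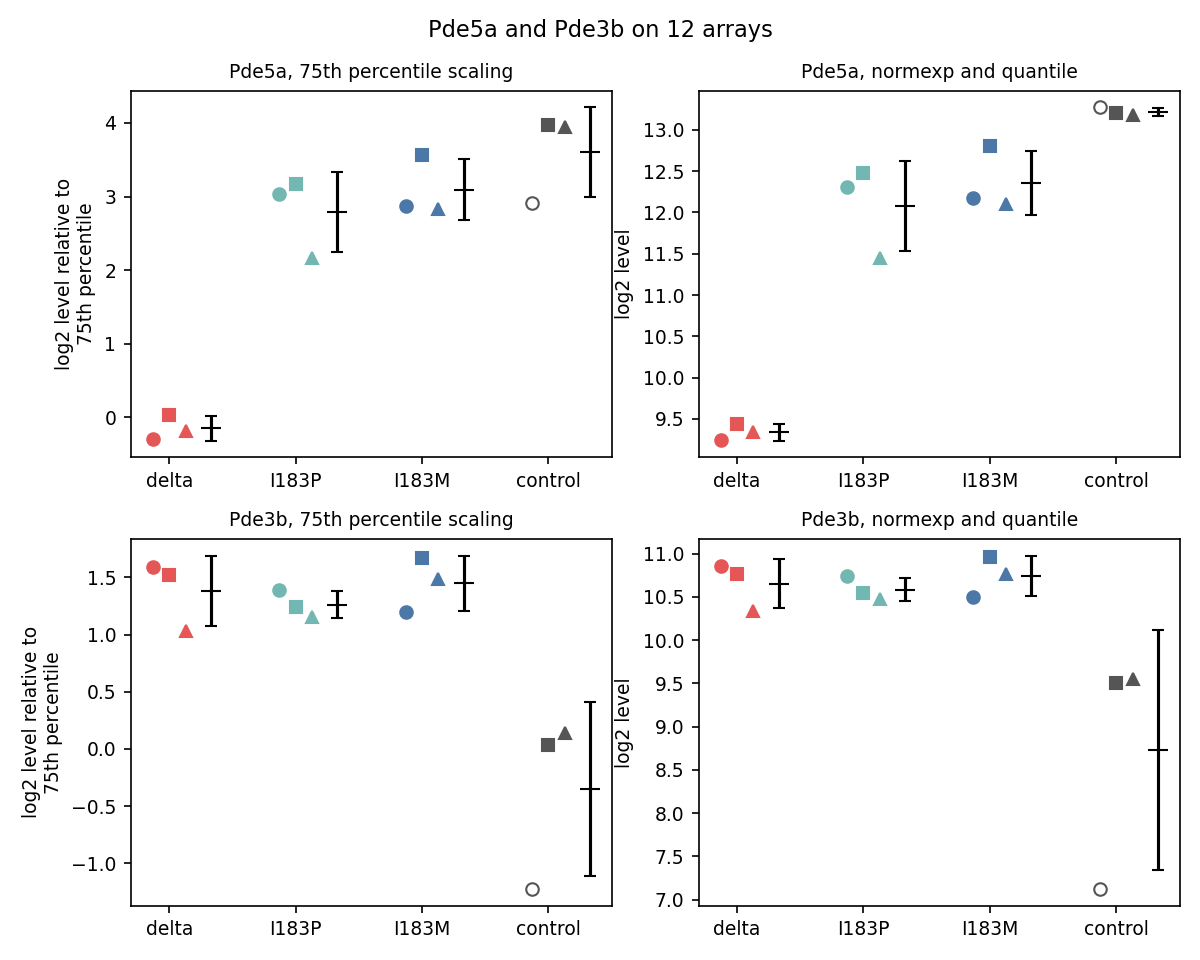
Levels of Pde5a (top) and Pde3b (bottom) on each of the 12 arrays, as log2 relative to the 75th percentile of the array (left) and on the quantile scale (right). Points are arrays (circle, square and triangle for replicates 1, 2 and 3, the open circle being control replicate 1) and bars are the mean ± SD of 3 arrays. The delta arrays of Pde5a sit between -0.29 and 0.03 on the left, below all others, and the control arrays of Pde3b sit below all 9 mutant arrays in both panels.

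Pde3b, which is known from fat and vessels as well as heart, was read by probe A_55_P2032538 on chromosome 7 and showed the opposite side of control in every mutant line. Its level was 1.59, 1.52 and 1.03 in delta, 1.39, 1.24 and 1.15 in I183P, 1.19, 1.67 and 1.49 in I183M, and -1.23, 0.03 and 0.14 in control. All 9 mutant arrays lay above all 3 control arrays, and the mutant lines overlapped with each other. The same held on the quantile scale, where the mutant arrays read 10.34 to 10.97 and the control arrays 7.12, 9.50 and 9.55. All 9 mutant arrays lay above the control arrays at 287 of the 41619 probes (0.690%), and at 0.889% on the quantile scale.

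The difference of Pde3b from control was 1.73 in delta, 1.61 in I183P and 1.80 in I183M (SE 0.36). None of the 3 passed the threshold (limma adjusted p = 0.245, 0.570 and 0.954). Control replicate 1 was the lowest array, and without it the differences were 1.30, 1.18 and 1.36. On the quantile scale they were 1.93, 1.86 and 2.02. The 3 comparisons share their control arrays. The summed level of 5 adipocyte markers was -0.16 to 1.96 in delta, -1.53 to 0.21 in I183P, 1.23 to 1.43 in I183M and -1.26 to 1.59 in control. Of these 5 markers 3 lay above control in delta, 0 in I183P and 5 in I183M, with median differences of 0.05, -1.10 and 0.48. Without control replicate 1 the counts were 5, 0 and 5, with medians of 0.72, -0.31 and 1.61. The part of fat cells in the Pde3b values was not tested.

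The 5 named genes closest to Pde3b over the 12 arrays were Prlr (r = 0.960), Rbfox1 (0.958), Fxyd6 (0.954), Unc13b (0.954) and Nudt4 (0.944). Without control replicate 1 these values were 0.909, 0.925, 0.899, 0.886 and 0.843, and on the quantile scale Unc13b (0.975) and Prlr (0.914) stood above Rbfox1 (0.776), Fxyd6 (0.635) and Nudt4 (0.466). Unc13b differed from control by 1.00 in delta, 1.04 in I183P and 1.08 in I183M on the quantile scale, and Prlr by 1.13, 0.85 and 0.86. All 5 genes were picked for likeness to Pde3b over these arrays, so nothing is read from the shared order of their groups.

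Pde3a, the other Pde3 enzyme and a regulator of calcium uptake in heart muscle, was read by 2 probes on chromosome 6. Probe A_55_P2071402 had levels of -1.39, -0.95 and -0.97 in delta, -0.91, -0.81 and -1.75 in I183P, -1.51, -1.30 and -1.19 in I183M, and -0.80, -1.83 and -1.36 in control. Probe A_55_P2049373 had -2.44, -1.69 and -1.76 in delta, -2.06, -2.01 and -3.13 in I183P, -1.52, -2.39 and -2.33 in I183M, and -0.10, -2.74 and -2.51 in control. The groups overlapped at both. Differences from control at A_55_P2049373 were -0.18 in delta, -0.61 in I183P and -0.29 in I183M, and their sign turned without control replicate 1, to 0.67, 0.23 and 0.55, where the delta and the I183M arrays lay above both other control arrays. At A_55_P2071402 the differences were 0.22, 0.17 and 0.00, and 0.49, 0.44 and 0.26 without that array. On the quantile scale all delta arrays of A_55_P2071402 (8.42 to 8.66) lay above all control arrays (7.53 to 8.41), a difference of 0.51 (limma adjusted p = 0.611). The share of all probes separated in this way is not given for the quantile scale or without control replicate 1. Nothing is read from these separations of Pde3a.

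Pde1a, of which 1 probe (A_55_P1974845, chromosome 2) was present, read -0.58, -0.58 and -0.68 in delta, -0.45, -0.51 and -0.92 in I183P, -0.09, -0.49 and -0.57 in I183M, and 0.05, -0.57 and -0.40 in control. The delta arrays lay below the I183M arrays by 0.23 on average and just below the control arrays. Neither difference passed the threshold (limma adjusted p = 1.00 against I183M and 0.782 against control). Delta and control overlapped on the quantile scale, and with slide as a block the delta difference was 0.21 from I183M and 0.13 from control.

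Pde1c, the Pde1 enzyme of heart muscle cells, was read by 3 probes on chromosome 6 that carry 3 different accessions. Probe A_52_P208222 had levels of 0.06, 0.09 and -0.20 in delta, -0.04, 0.00 and -0.12 in I183P, 0.15, 0.78 and 0.89 in I183M, and -0.53, 0.62 and 0.85 in control. Probe A_55_P1974830 had -0.84, -0.28 and -0.98 in delta, -0.43, -0.52 and -1.43 in I183P, -0.19, -0.07 and 0.06 in I183M, and 0.91, -0.27 and -0.09 in control. At both probes the delta and the I183P arrays lay below all I183M arrays, on both scales. The delta difference from I183M was -0.62 and -0.63 and the I183P difference from I183M was -0.66 and -0.73, with no adjusted p under 0.05 in the limma fit. With slide as a block the delta difference at A_55_P1974830 was 0.33 from I183M and 0.07 from control, so its sign there turned with the block.

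Against control the Pde1c probes did not give 1 answer. At A_55_P1974830 the delta and I183P arrays lay below all control arrays, by 0.88 and 0.98 on average (SE 0.38, limma adjusted p = 0.703 and 0.570). At A_52_P208222 control replicate 1 was the lowest of the 12 arrays, so the groups overlapped and the differences were -0.33 and -0.37. Without that array the differences at A_52_P208222 were -0.75 in delta and -0.79 in I183P (limma adjusted p = 0.203 and 0.438), and at A_55_P1974830 they were -0.52 and -0.61. The third probe, A_52_P108243, was dim, ranged from -6.08 on delta replicate 3 to -2.02 on control replicate 1, and differed from control by -1.60 in delta (SE 0.78, limma adjusted p = 0.754), and by -0.31 on the quantile scale.

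Pde2a, which cyclic GMP activates, was read by probe A_55_P2105542 on chromosome 7. Its level was 5.05, 5.03 and 5.17 in delta, 5.22, 5.12 and 5.20 in I183P, 4.85, 4.83 and 4.87 in I183M, and 3.70, 4.92 and 5.21 in control. The delta and I183P arrays all lay above the I183M arrays, by 0.23 and 0.33 on average, and did so on the quantile scale as well (0.25 and 0.35). Neither passed the threshold (limma adjusted p = 1.00 for both, and 0.868 and 1.00 on the quantile scale). Against control every mutant line overlapped, with differences of 0.47 in delta, 0.57 in I183P and 0.24 in I183M. These were 0.02, 0.11 and -0.21 without control replicate 1, where the I183M arrays lay below both other control arrays. The share of all probes separated from these 2 arrays is not given, and nothing is read from it. Without control replicate 1 the 11 arrays spanned 0.38 log2 units, while with it they spanned 1.51.

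Among the enzymes selective for cyclic AMP, Pde4d is known to sit beside the calcium release channel of heart muscle. Its probe A_65_P12530, on chromosome 13, read 0.39, 0.22 and -0.26 in delta, 0.75, 0.47 and 0.56 in I183P, 0.27, 0.55 and 0.54 in I183M, and -0.86, 0.17 and 0.55 in control. The delta arrays lay below all I183P arrays, by 0.47 (SE 0.35, limma adjusted p = 1.00). Its other probe, A_55_P2010396, read -1.24, -0.33 and -1.12 in delta, -0.42, -0.68 and -1.29 in I183P, -0.57, -0.66 and -0.51 in I183M, and 0.90, -1.03 and -0.89 in control. There delta and I183P overlapped. Differences from control in delta, I183P and I183M were 0.16, 0.64 and 0.50 at A_65_P12530 and -0.56, -0.46 and -0.24 at A_55_P2010396. Without control replicate 1 they were -0.24, 0.23 and 0.09 at A_65_P12530 and 0.06, 0.16 and 0.38 at A_55_P2010396, so the probes of this gene changed sides with 1 array.

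Pde4b was read by 3 probes on chromosome 4 that share 1 accession. The brightest, A_65_P01319, read 0.88, 0.89 and 0.04 in delta, 0.68, 0.68 and 0.73 in I183P, 0.19, 1.42 and 1.58 in I183M, and -0.35, 0.76 and 0.47 in control. Its difference from control was 0.31 in delta, 0.40 in I183P and 0.77 in I183M (SE 0.43), and without control replicate 1 it was -0.02, 0.08 and 0.45. At the other 2 probes differences from control lay between -0.29 and 0.30. No group of Pde4b separated from control at any of the 3 probes on the 75th percentile scale.

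Pde8a, an enzyme with high affinity for cyclic AMP, was read by probe A_66_P122883 on chromosome 7. Its level was -4.15, -2.71 and -2.28 in delta, -3.76, -3.58 and -4.79 in I183P, -2.43, -3.30 and -3.15 in I183M, and -0.29, -4.25 and -4.20 in control. Control replicate 1 was nearly 4 log2 units above the other control arrays. The difference from control was -0.13, -1.13 and -0.04 in delta, I183P and I183M (SE 0.98) and, without that array, 1.18, 0.19 and 1.27, so its sign turned with 1 array in all 3 lines. The I183P arrays lay below all I183M arrays, by 1.08 (SE 0.98), and by 0.27 on the quantile scale.

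**Figure D2:**
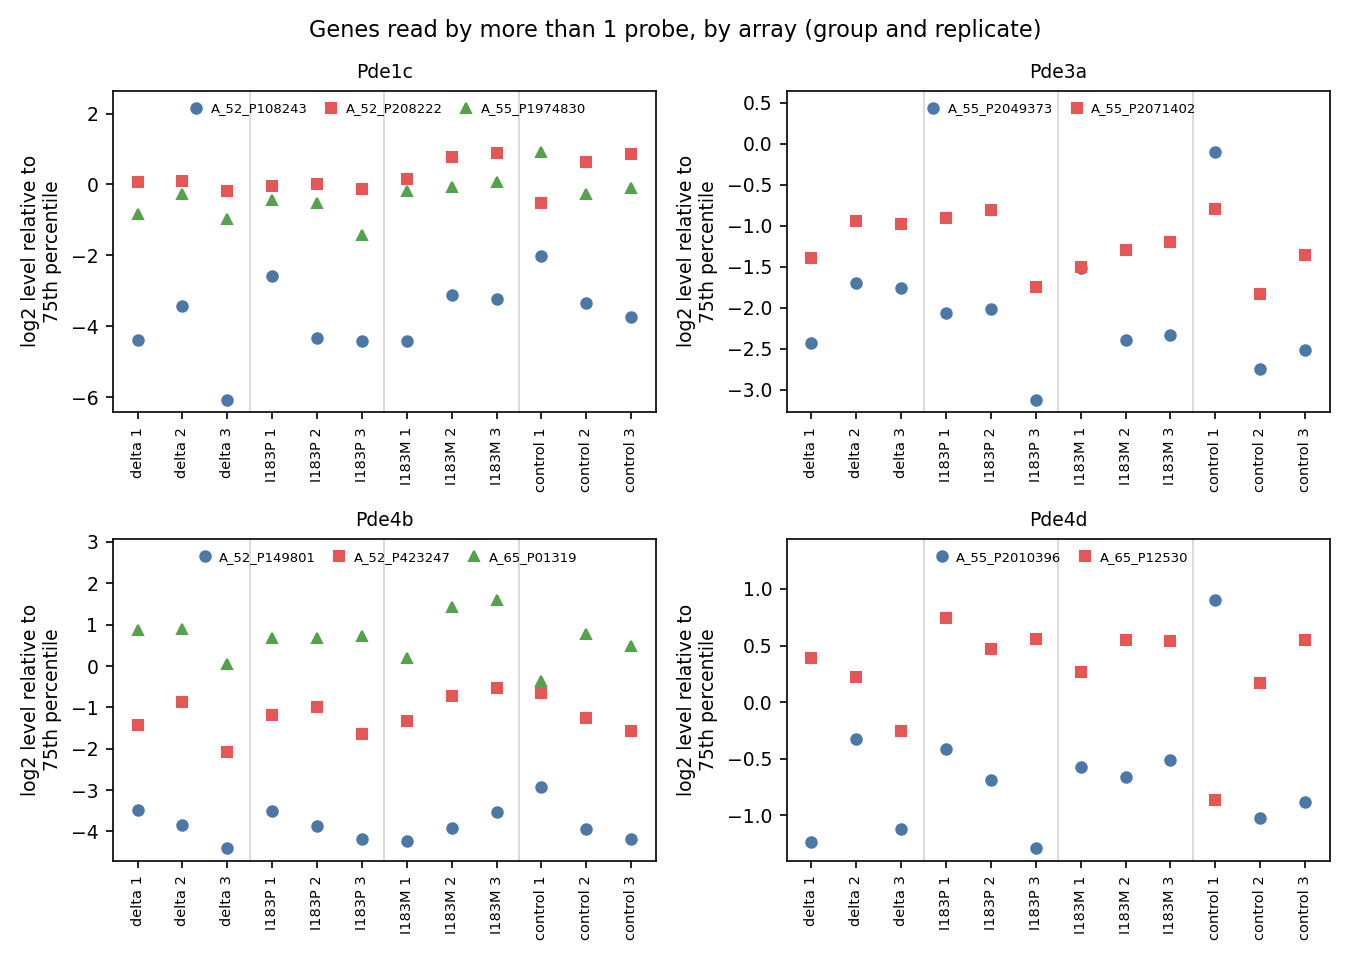
Levels (log2 relative to the 75th percentile of each array) of the probes of Pde1c, Pde3a, Pde4b and Pde4d on the 12 arrays, named by group and replicate along the axis. Colours and symbols are probes. On control replicate 1 the probes of Pde4d (0.90 and -0.86) and 2 probes of Pde1c (0.91 and -0.53) stand in the reverse of their order on the other 11 arrays.

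Probes of the same gene disagreed on control replicate 1. The level of Pde4d probe A_65_P12530 was above that of A_55_P2010396 by 0.54 to 1.85 on the other 11 arrays and below it by 1.76 on control replicate 1 (a gap of -1.76). For Pde1c the gap of A_52_P208222 over A_55_P1974830 was 0.34 to 1.31 on the 11 arrays and -1.45 on control replicate 1. For Pde3a the gap of A_55_P2071402 over A_55_P2049373 was 0.01 to 1.38 and -0.69, and for Pde4b the gap of A_65_P01319 over A_52_P423247 was 1.53 to 2.38 and 0.30. Quantile normalization did not remove this, since there the gap on control replicate 1 was -3.43 for Pde4d and -3.08 for Pde1c. Across arrays the 2 Pde4d probes correlated at -0.58 over 12 arrays and at 0.29 over the 11 without that array, and the same 2 probes of Pde1c at 0.14 and 0.76. Pde5a, Pde3b, Pde9a, Pde2a, Pde1a and Pde8a have 1 probe each, so this check could not be made for them.

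**Figure D3:**
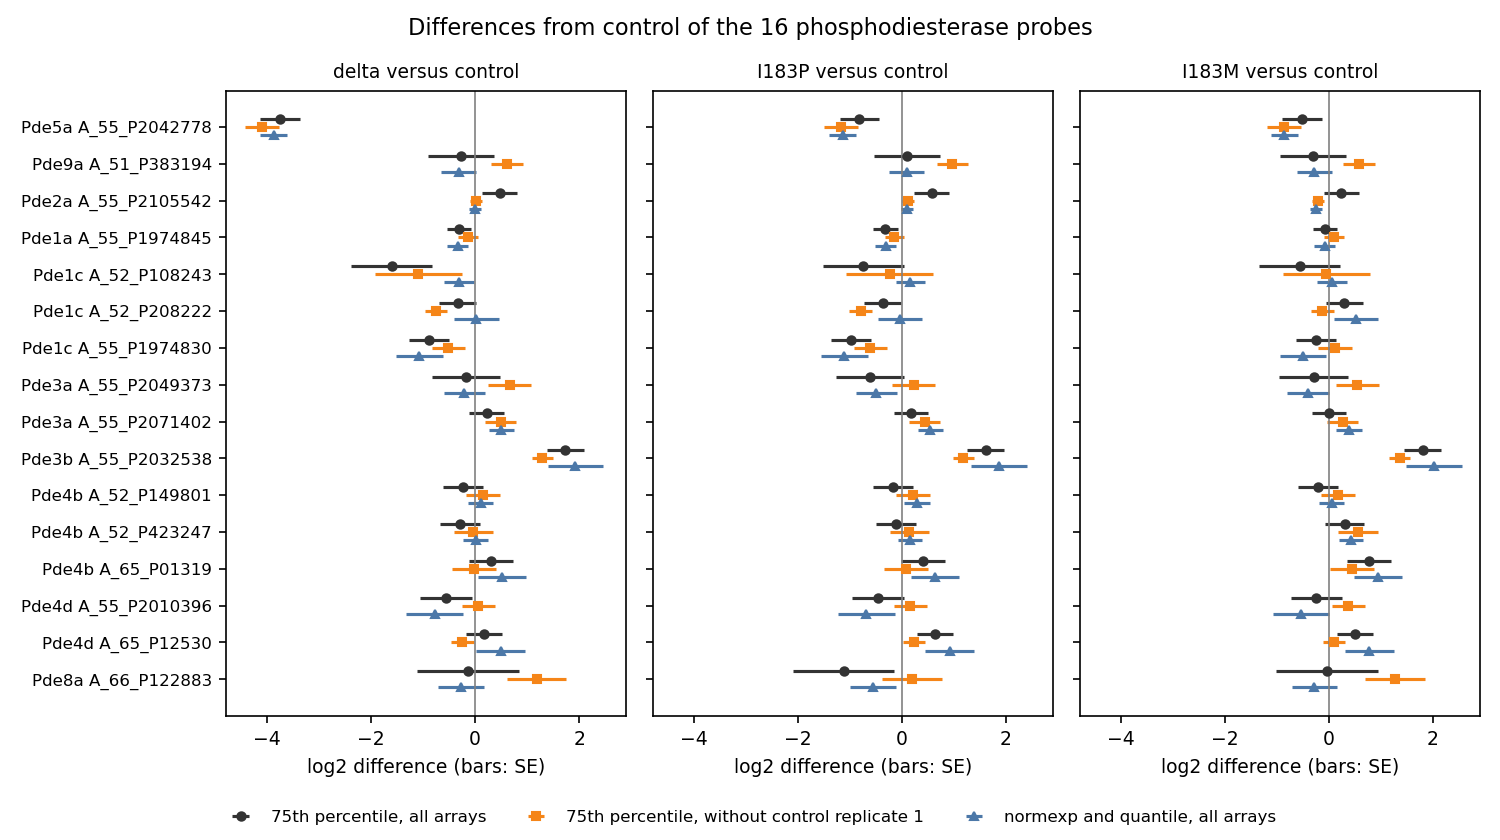
Log2 differences from control of the 16 probes in delta, I183P and I183M (left to right), with bars of 1 SE. Black circles are the 75th percentile scale with all arrays, orange squares the same without control replicate 1, and blue triangles the quantile scale with all arrays. Pde5a lies to the left in delta (-3.75, -4.10 and -3.88) and Pde3b to the right in all 3 lines on each of these settings, while most other probes lie near 0 or change side.

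Over the 16 probes the median difference from control was -0.25 in delta, -0.25 in I183P and -0.06 in I183M, beside medians over all 41619 probes of -0.07, -0.17 and 0.03. On the quantile scale the medians were -0.10, 0.09 and -0.01, beside 0.01, 0.04 and 0.01 over all probes. Leaving out control replicate 1 gave 0.00, 0.15 and 0.22, with 8, 11 and 12 of 16 above 0 where all arrays gave 5, 6 and 6, beside 0.18, 0.01 and 0.11 over all probes. In delta versus control 1 of the 16 probes, that of Pde5a, was past the threshold of the limma fit, beside 0.036% of all probes, and nothing is read from this since the gene was chosen on that contrast. In I183P versus control 0 of 16 were past it, beside 0.0024% of all probes, and in I183M versus control 0 of 16, beside 0% of all probes. At an unadjusted p under 0.05 the counts were 3, 2 and 1 of 16, beside 6.93%, 4.92% and 1.48% of all probes. They were Pde5a, Pde3b and Pde1c probe A_55_P1974830 in delta, Pde3b and that Pde1c probe in I183P, and Pde3b in I183M. Nothing is read from these counts, since Pde5a and Pde3b were chosen on these arrays.

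In the direct comparisons of the mutant lines 0 of 16 probes and 0% of all probes were past the threshold of the limma fit. At an unadjusted p under 0.05 there were 1 probe in delta versus I183P, 1 in delta versus I183M (Pde5a in both) and 0 in I183P versus I183M, beside 2.59%, 3.28% and 1.22% of all probes. With the quantile scale the limma fit called Pde5a in delta versus I183P and in delta versus I183M, where it called 0.00721% and 0.012% of all probes, and called no other of the 16. Nothing is read from these calls, since the gene was chosen for its low reading in delta. Against control on that scale it called 1 of 16 in delta (Pde5a), 0 in I183P and 0 in I183M, beside 0.0721%, 0.00721% and 0.00481% of all probes.

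Groups that did not overlap were counted as well. In delta versus control 4 of 16 probes (those of Pde5a, Pde3b, Pde1a and 1 of Pde1c) did not overlap, beside 12.7% of all probes. In I183P versus control 2 of 16 (Pde3b and 1 of Pde1c) did not overlap, beside 12.5%, and in I183M versus control 1 of 16 (Pde3b), beside 3.65%. The counts were 2 of 16 in delta versus I183P, 5 of 16 in delta versus I183M and 4 of 16 in I183P versus I183M, beside 18.2%, 16.4% and 25.2% of all probes. Every one of these counts includes Pde5a or Pde3b except that of I183P versus I183M.

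The other genes of cyclic nucleotide signalling were read from 6 lists, of which 79 genes were tested. In each of the 6 comparisons 0 of the 79 were past the threshold of the limma fit, on both scales. The share of all probes past it was at most 0.036% on the 75th percentile scale and 0.0721% on the quantile scale. At an unadjusted p under 0.05 there were 5 genes in delta, 8 in I183P and 6 in I183M versus control, beside 6.93%, 4.92% and 1.48% of all probes. On the quantile scale there were 12, 17 and 8, beside 8.78%, 7.61% and 3.05% of all probes. Values of the genes named below were selected for a small p within their list and did not pass the adjusted threshold. They are mostly given for the line with that p, so a value shown for 1 line is not said to be particular to it.

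Of 14 genes of cyclic GMP synthesis and its hormones, 9 differed upward from control in delta on the 75th percentile scale, 9 without control replicate 1 and 6 on the quantile scale. Gucy1a1, a subunit of the nitric oxide receptor that makes cyclic GMP, read 11.21, 11.004 and 11.26 in delta, against 10.41, 10.51 and 10.72 in control on the quantile scale. The delta arrays lay above the control arrays, a difference of 0.61 (SE 0.12, limma adjusted p = 0.124). They did so on the 75th percentile scale too, where delta and control did not overlap at 12.7% of all probes. On the 75th percentile scale it was 0.82, and 0.51 without control replicate 1. The I183M arrays (10.91, 10.99 and 10.96) and I183P arrays (10.89, 10.92 and 11.08) of Gucy1a1 also lay above all control arrays on the quantile scale. All 9 mutant arrays lay above control at 0.889% of all probes there. Npr3, the clearance receptor of natriuretic peptides, read 9.59, 9.57 and 9.81 in delta, against 9.22, 9.02 and 9.13 in control, a difference of 0.53 (SE 0.11, limma adjusted p = 0.166), and without control replicate 1 on the 75th percentile scale it was 0.65. The I183M arrays of Npr3 (9.67, 9.55 and 9.38 on the quantile scale) lay above control too, and the I183P arrays overlapped with control.

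Nppa, which encodes atrial natriuretic peptide, a ligand upstream of cyclic GMP, read 14.50, 13.10 and 13.37 in I183M, against 15.49, 15.81 and 15.63 in control on the quantile scale. Every I183M array lay below every control array there, a difference of -1.98 (SE 0.40, limma adjusted p = 0.834). The I183P arrays of Nppa (14.91, 14.35 and 14.37) also lay below every control array there, while the delta arrays (16.25, 14.85 and 15.49) overlapped with control. The share of all probes separated from control on the quantile scale is not given. On the 75th percentile scale I183M and control overlapped through control replicate 1, while the 2 groups did not overlap at 3.65% of all probes. Without control replicate 1 on that scale the Nppa difference was -2.08. Nppa also marks atrial muscle cells. The summed level of the 5 atrial markers, with Nppa among them, was 14.33 to 15.57 in I183M and 15.80 to 16.32 in control. That sum takes in the Nppa value itself, so it is not a separate reading of atrial tissue. On control replicate 2, for example, the sum was 15.86 and Nppa 15.81. Of the 5 markers 3 differed upward, and the part of atrial tissue in the Nppa value was not tested.

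Of 8 effectors of cyclic GMP, 6 lay above control in delta and 7 in both I183P and I183M, and without control replicate 1 the counts were 5, 5 and 5. Prkg1, the cyclic GMP dependent protein kinase, differed from control by 0.44 in I183P (SE 0.25, limma adjusted p = 0.570) and by 0.17 without that array. Ppp1r12a, the targeting subunit of myosin phosphatase, differed by 0.60 in I183P and by 0.31 without it. Cnga3, a cyclic nucleotide gated channel, differed by 0.63 in I183M and by 0.65 without it (limma adjusted p = 0.954 and 0.707).

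Of 14 other phosphodiesterases of cyclic nucleotides, 7 lay above control in delta, 6 in I183P and 8 in I183M. Pde8b, the partner of Pde8a in its family, differed from control by 0.95 in I183P (SE 0.25, limma adjusted p = 0.570), by 0.72 without control replicate 1 and by 1.01 on the quantile scale. Pde1b differed by 0.43 in I183P (limma adjusted p = 0.570), and Pde4c by 0.85 in delta (limma adjusted p = 0.724) but by 0.26 on the quantile scale. None of the 14 passed the threshold of the limma fit.

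On the cyclic AMP side, 10 of 14 genes of its synthesis and 15 of 18 effectors lay above control in delta on the 75th percentile scale, and 5 and 14 did on the quantile scale. Leaving out control replicate 1 gave counts in delta of 6 of 14 and 11 of 18, and the effectors above control in I183P numbered 4 of 18, against 15 with all arrays. Of all probes 46.5% lay above 0 in delta with all arrays. The adenylyl cyclases Adcy9 and Adcy6 differed from control by 0.66 and 0.42 in I183M, and by 0.34 and 0.03 on the quantile scale, and Adcy7 by 0.56 in I183P, which was 0.19 without control replicate 1. Hcn2, a pacemaker channel opened by cyclic AMP, differed by 0.71 in delta, and by 0.33 without control replicate 1. Popdc3, a cyclic AMP binding membrane protein, differed by 0.63 in delta, and by 0.24 without that array. Rapgef4, an exchange factor activated by cyclic AMP, differed by -0.46 in I183P, and by 0.14 on the quantile scale.

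Of 11 anchors and transporters, 10 lay above control in delta, 11 in I183P and 11 in I183M, with medians of 0.35, 0.57 and 0.42. Without control replicate 1 the medians were -0.09, 0.13 and 0.09, beside medians over all probes of 0.18, 0.01 and 0.11. Akap5, an anchor of protein kinase A, differed from control by 1.097 in I183P (SE 0.51, limma adjusted p = 0.570) and by 1.18 without that array. Akap6, an anchor that binds Pde4d at the nuclear envelope, differed by 0.73 in I183P and by 0.28 without it, and Abcc5, an exporter of cyclic nucleotides, by 0.71 and 0.38.

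**Figure D4:**
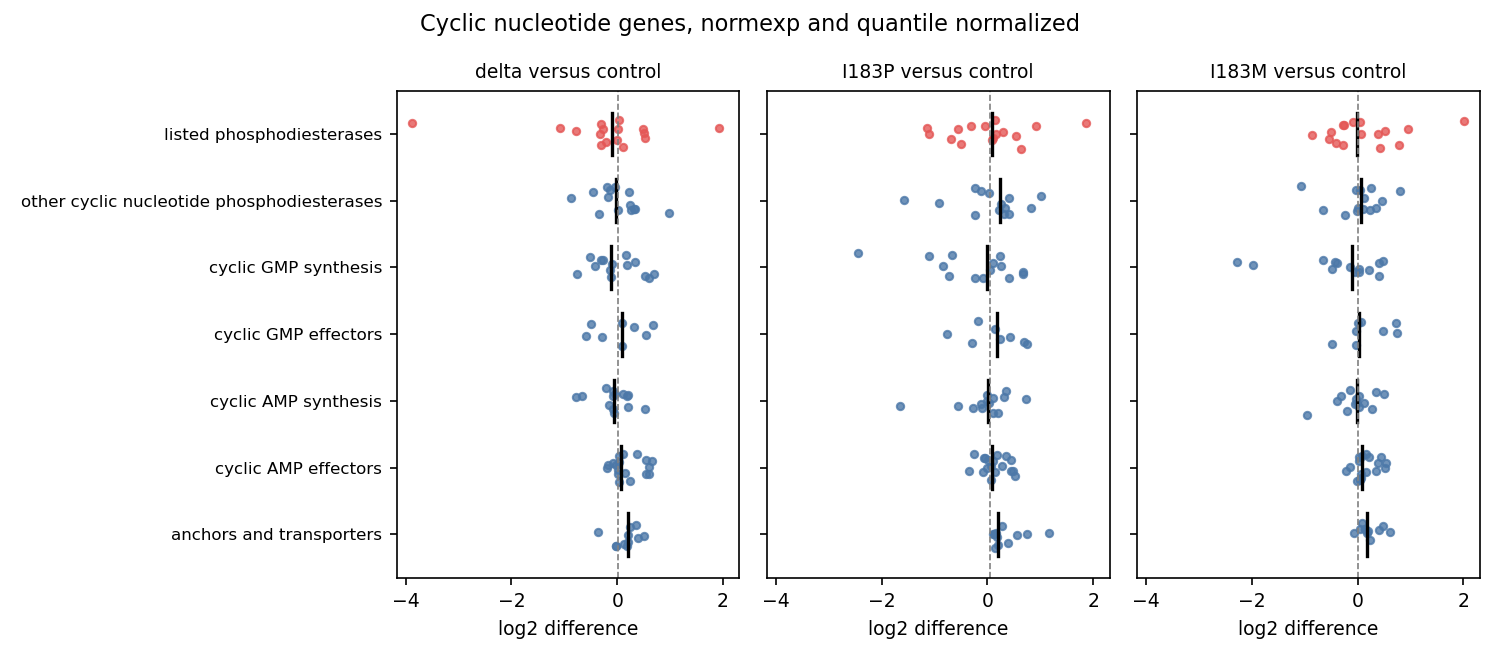
Log2 differences from control on the quantile scale in delta, I183P and I183M (left to right) for the 16 probes of the chosen phosphodiesterases (red) and the tested genes of 6 lists (blue, 1 probe a gene), with a black bar at each median and a dashed line at the median of all probes. The red points of Pde5a (-3.88) and Pde3b (1.93) lie apart in delta, and the list medians lie within 0.25 of 0.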

How the data were processed

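Image extraction used Agilent Feature Extraction 11.0.1.1 with a 1-colour protocol and an mm9 probe layout, per the file headers. The deposited files hold intensity values per spot: the processed intensity, corrected for background within each array by the authors' scanner software, and the median foreground and background intensity. A deposited table holds the authors' log2 values of the same arrays. Its scale and its match to the scanner values were read from its array medians (6.89 to 6.94) and its rank correlation with the processed intensity (0.961 to 0.998), and whether it was centred further is not given. The submitters' processing notes name Feature Extraction and limma.

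Here outlier and control spots were dropped, log2 processed intensity was averaged by probe, and the 75th percentile of each array was subtracted. Probes well above background on at least 3 of 12 arrays with no missing value were tested (41619 of 55681) by lmFit and eBayes of limma 3.58.1 (R 4.3.3) on all 12 arrays, with Benjamini-Hochberg adjustment and a threshold of 0.05, in 6 comparisons. Adjusted p are from this fit. Where values of the quantile scale or values without control replicate 1 are given, they are from the same model fitted to those values. The number of arrays limits the precision. Gene names come from a RefSeq table of GRCm38.p6 matched by accession (27235 probes), and its coordinates were used for promoter sequences alone. A gene of a list was read from its tested probe of highest mean. The quantile scale is normexp (offset 50) on the median intensities followed by quantile normalization.

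The genes, the 6 pathway lists and 10 marker lists, and the rule for named genes were chosen with earlier results of these data known. That rule takes every probe of the 10 genes, Nkx2-5, up to 3 genes of each pathway list by smallest p against control, and the 5 named genes most correlated with Pde5a and with Pde3b. Other settings tried were the authors' table, other scalings, filters, spread models, array weights, slide and replicate blocks, and leaving out each array.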

Additional observations from a re-analysis of the deposited data

How the results depend on the processing

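Of the 28 settings tried, the fits within 1 slide hold no delta versus control comparison, since no slide has both groups. The difference of Pde5a in delta versus control kept its direction under each of the others. The count of the 16 phosphodiesterase probes past the threshold in delta versus control was 1, and 0 with median scaling, with only the compared groups in the fit, and with slide as a block. Leaving out 1 array at a time gave counts of 0 to 1 in that comparison. It was 0 without control replicate 2 or 3, I183M replicate 1 or 3, I183P replicate 1, or any delta array. Over the settings that hold both groups the difference of Pde5a in delta versus control lay between -4.13 and -2.81. In delta versus I183M the count was 0, and 1 on the quantile scale, with the authors' table, with quantile normalization of the processed intensity, with the stricter filter, with an intensity trend, and with array weights. Leaving out arrays gave 0 to 1, with 1 without control replicate 1. In delta versus I183P the count was 0, and 1 on the quantile scale, with an intensity trend and with array weights, and leaving out arrays gave 0 to 1. Array weights, which gave control replicate 1 a weight of 0.0298, raised the count to 2 in delta, 3 in I183P and 1 in I183M versus control, and the count of the 79 pathway genes to 6 in I183P and 3 in I183M versus control, where it was 0 otherwise. The calls added by these weights were Pde3b in all 3 lines and, in I183P, Pde9a (1.21) and Pde1c probe A_52_P208222 (-0.74). In the fit of all arrays without weights these I183P differences were 0.09 (SE 0.63) for Pde9a and -0.37 (SE 0.36) for that Pde1c probe. A steady direction is therefore not claimed for these 2 calls. Calls of Pde5a and Pde3b support nothing, since both genes were chosen on these arrays. The share of all probes past the threshold is not given for array weights or the other settings of this section, apart from the quantile scale. A higher count under such a setting can therefore not be told from a rise over all probes, and nothing is read from it. Settings added after the data were seen were the quantile scale with leave-one-out of control replicate 1, with counts of 2 in delta versus control, 1 in delta versus I183M and 1 in delta versus I183P, and the quantile scale with slide as a block, with 0 in delta versus control. With replicate number as a block the count in delta versus control was 1 and the other counts were 0. Same-numbered arrays of different groups correlated in their deviations from -0.81 to 0.79 over 18 pairs, so the numbers were not taken to pair samples. Pde8a and Pde1c probe A_52_P108243 had the largest errors (SE 0.98 and 0.78), and that of Pde8a was 0.57 without control replicate 1. The cause of these shifts was not tested.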
